A study of Homo sapiens with 8 samples.

Results

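The genes described here are a fixed set of 10: endoplasmic reticulum chaperones, their partners, and the XBP1 and ATF6 genes with their classical targets. They were HSPA5, HSP90B1, CALR, PDIA4, DNAJB9, DNAJC3, HERPUD1, SDF2L1, XBP1 and ATF6. A gene counted as measured when a probe carried its symbol, or an older alias of it, and no other symbol. Under that rule 9 of the 10 were measured, by 11 probes, among 18336 genes measured by 31741 probes in all. HSP90B1 was not measured, because its probe also carried the symbol of the pseudogene HSP90B2P. DNAJC3 and ATF6 had a second probe each.

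The data came from 2 human liver cancer lines, PLC/PRF/5 (PLC5 below) and HepG2, treated with 10 µM GSK343 or kept as controls. GSK343 is a small-molecule inhibitor of EZH2, the histone methyltransferase of Polycomb repressive complex PRC2. The 4 groups were PLC5 with GSK343, PLC5 control, HepG2 with GSK343 and HepG2 control, with 2 one-colour arrays in each and 8 in all. The time is uncertain: it is 16 h in the sample titles and the design, but 6 h in the treatment protocol. Whether the controls were given the drug's solvent is not stated. Nothing in the labels says that paired arrays are independent cultures, and the p-values then measure only the spread between arrays, which may be technical. In bulk RNA, fewer cells expressing a gene and less of its RNA per cell cannot be told apart.

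The endoplasmic reticulum is where secreted and membrane proteins fold, and in hepatocytes it handles a very large flow of plasma proteins. When folding fails, 3 sensors start the unfolded protein response: IRE1 splices the XBP1 message, ATF6 is cut to release a transcription factor, and PERK slows translation and raises ATF4 and CHOP. XBP1 and the cut form of ATF6 switch on chaperones and degradation factors through short promoter elements. PERK is not the only route to ATF4, since other kinases that sense amino acid shortage, haem or viral RNA converge on the same factor. The splicing of XBP1 and the cutting of ATF6 are not read by a probe intensity.

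The promoter elements of the members are shown because ATF6 and XBP1 act on their targets through such elements, though not every member held one. The sequences are from RefSeq promoter windows of GRCh38.p14, which run from 250 bases before to 50 bases after each gene's start, and all 10 members had a window. The endoplasmic reticulum stress element ERSE was searched as CCAAT and CCACG with 9 bases between them, and ERSE-II as ATTGG and CCACG with 1 base between them. The amino acid response core CARE, bound by ATF4 with a partner, was searched as TGATG and AA with 1 base between them, and the XBP1 element UPRE by its core TGACGTGG. All searches covered both strands, and no match overlapped another in the members. Capitals mark the match in each of the following stretches, read 5′ to 3′ on the gene's own strand.
HSPA5, ERSE, minus strand, chr9:125241381-125241419: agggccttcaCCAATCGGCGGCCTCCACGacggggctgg
XBP1, ERSE, minus strand, chr22:28800593-28800631: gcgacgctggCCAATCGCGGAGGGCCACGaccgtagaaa
CALR, ERSE in the reverse direction, plus strand, chr19:12938374-12938412: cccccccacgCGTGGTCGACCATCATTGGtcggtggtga
SDF2L1, ERSE-II in the reverse direction, plus strand, chr22:21642104-21642134: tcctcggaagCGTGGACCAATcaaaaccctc
DNAJB9, no match, plus strand, the last bases before the start, shown because this gene rose with GSK343 in PLC5, chr7:108569814-108569873: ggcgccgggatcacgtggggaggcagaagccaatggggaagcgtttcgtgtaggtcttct
HERPUD1, CARE core in the reverse direction and then ERSE-II, plus strand, chr16:56931956-56932045: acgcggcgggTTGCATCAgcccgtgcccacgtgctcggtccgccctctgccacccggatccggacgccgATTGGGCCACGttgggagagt

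ERSE was found in 4 of the 10 members, namely HSPA5, XBP1, CALR and HSP90B1, and in 25 of all 27305 genes with a window (0.0916%). ERSE-II was found in 2 members, HERPUD1 and SDF2L1, and in 19 genes in all (0.0696%). HERPUD1 was the 1 member with a CARE core, which 4.46% of all genes held. The UPRE core was in 0 members and in 0.927% of all genes. The windows of PDIA4, DNAJB9, DNAJC3 and ATF6 held none of these letters. A match is a description of the sequence and not of binding. The members were chosen as ATF6, XBP1 and their classical targets, so their share with an element is no separate evidence.

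The arrays were alike within groups (r from 0.984 to 0.989 across probes) and clearly apart between lines (r from 0.887 to 0.903). Values are quantile normalized intensities in arbitrary units, with no call of detection, and intensities below 64 are called dim here. No member probe was dim on any array. The dimmest was that of HSPA5, from 359.9 to 516 over the 8 arrays, at the 42.5 percentile of brightness over genes. The main probe of ATF6 was at 53.1, and those of the other members were between 82.0 and 98.0. Of 12 hepatocyte lineage markers 10 were measured, and 0 of these were dim on all arrays. Their summed intensity was 447927 to 476291 in treated PLC5 and 444411 to 477488 in PLC5 controls, and 1513985 to 1564409 in treated HepG2 and 1451221 to 1518057 in HepG2 controls. ALB, the albumin gene, was far lower in PLC5 (657 to 786) than in HepG2 (140643 to 186058). Between the controls, limma called 9 of the 10 lower in PLC5 and 1 higher, where 31.6% of all genes were called lower and 26.8% higher. The higher one was FGB, with 80047 and 88690 in PLC5 controls and 20294 and 19480 in HepG2 controls. Summed fibroblast markers (6 of 6 measured) were 2529 to 2561 in treated PLC5 and 1926 to 2243 in PLC5 controls, and 2747 to 2877 in treated HepG2 and 3880 to 4226 in HepG2 controls. The 6 endothelial markers summed to 1517 to 1708 and 1359 to 1394 in the same PLC5 groups, and to 2044 to 2106 and 1522 to 1789 in the same HepG2 groups. The 5 of 6 leukocyte markers measured summed to 2203 to 2502 and 2152 to 2875 in PLC5, and to 5177 to 5877 and 5573 to 6355 in HepG2. PTPRC, CD3E and DCN, listed as markers of leukocytes, T cells and fibroblasts, were dim on all 8 arrays. Other markers of the lists were not: 4 of 6 fibroblast, 5 of 6 endothelial and 3 of 5 leukocyte markers reached 64 on all arrays. Among these, CD14 reached 4343 and COL1A1 1945. The part of any marker list in the results was not tested.

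DNAJB9 and HERPUD1 were the members that rose with GSK343 in PLC5, each by about 1.5-fold, and no member passed the test in HepG2. Of 9 members in PLC5, 2 rose and 0 fell in limma (adjusted p under 0.05), where 1.07% of all genes were called, 0.834% higher and 0.235% lower. The same 2 had an unadjusted p under 0.05 there, against 16.1% of all genes. The median log2 fold change of the 9 members in PLC5 was 0.11, against -0.01 over all genes. In HepG2 limma called 0 of 9 members, where 8.8% of all genes were called, 5.35% higher and 3.45% lower. HSPA5 alone had an unadjusted p under 0.05 there (1 of 9), against 28.1% of all genes. The median in HepG2 was -0.16, against -0.01 over all genes, with 7 of 9 members below 0.

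HERPUD1 encodes a membrane protein of the endoplasmic reticulum that helps to send misfolded proteins to degradation. Its normalized intensity was 64857 and 64583 in GSK343-treated PLC5, against 39441 and 44302 in PLC5 controls. Both treated arrays lay above both controls. The rise was 1.55-fold (95% interval 1.32 to 1.81; log2 fold change 0.63 ± 0.10, limma adjusted p = 0.0291). In HepG2 the groups overlapped, with 56390.3 and 52711 under GSK343 and 49586 and 55493 in controls (log2 fold change 0.06, 95% interval -0.17 to 0.28). Across the 4 groups the order was treated PLC5, treated HepG2, control HepG2 and control PLC5, the HepG2 groups overlapping.

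DNAJB9 encodes ERdj4, a J-domain partner of the chaperone HSPA5. It had 15609 and 14989 in treated PLC5, against 9972 and 10199.6 in PLC5 controls, again with no overlap. It rose 1.52-fold there (95% interval 1.30 to 1.77; log2 fold change 0.60 ± 0.10, limma adjusted p = 0.0338). In HepG2 it had 3602 and 3658 under GSK343 and 4168 and 4018 in controls, a log2 fold change of -0.17 that did not pass the test (adjusted p = 0.293). The treated HepG2 arrays lay below both controls, a pattern that also held for 30.9% of all genes.

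Both calls in PLC5 were near the threshold. With arrays centred on their median in place of quantile normalization, the log2 fold change of each was 0.39, and neither passed (adjusted p = 0.164 for DNAJB9 and 0.235 for HERPUD1). Leaving out any 1 of the 8 arrays ended the call of DNAJB9 (adjusted p from 0.0809 to 0.161), and leaving out any but the second PLC5 control ended that of HERPUD1 (up to 0.141). The log2 fold changes without 1 array stayed between 0.58 and 0.64 for DNAJB9 and between 0.55 and 0.72 for HERPUD1. Leaving out any array also lowered the number of probes called among all probes, in PLC5 and in HepG2. Not every call was lost in this way, and how far a loss is particular to a gene, here or below, was not tested. With the replicate number as a block the count of members called in PLC5 was 0.

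**Figure D1:**
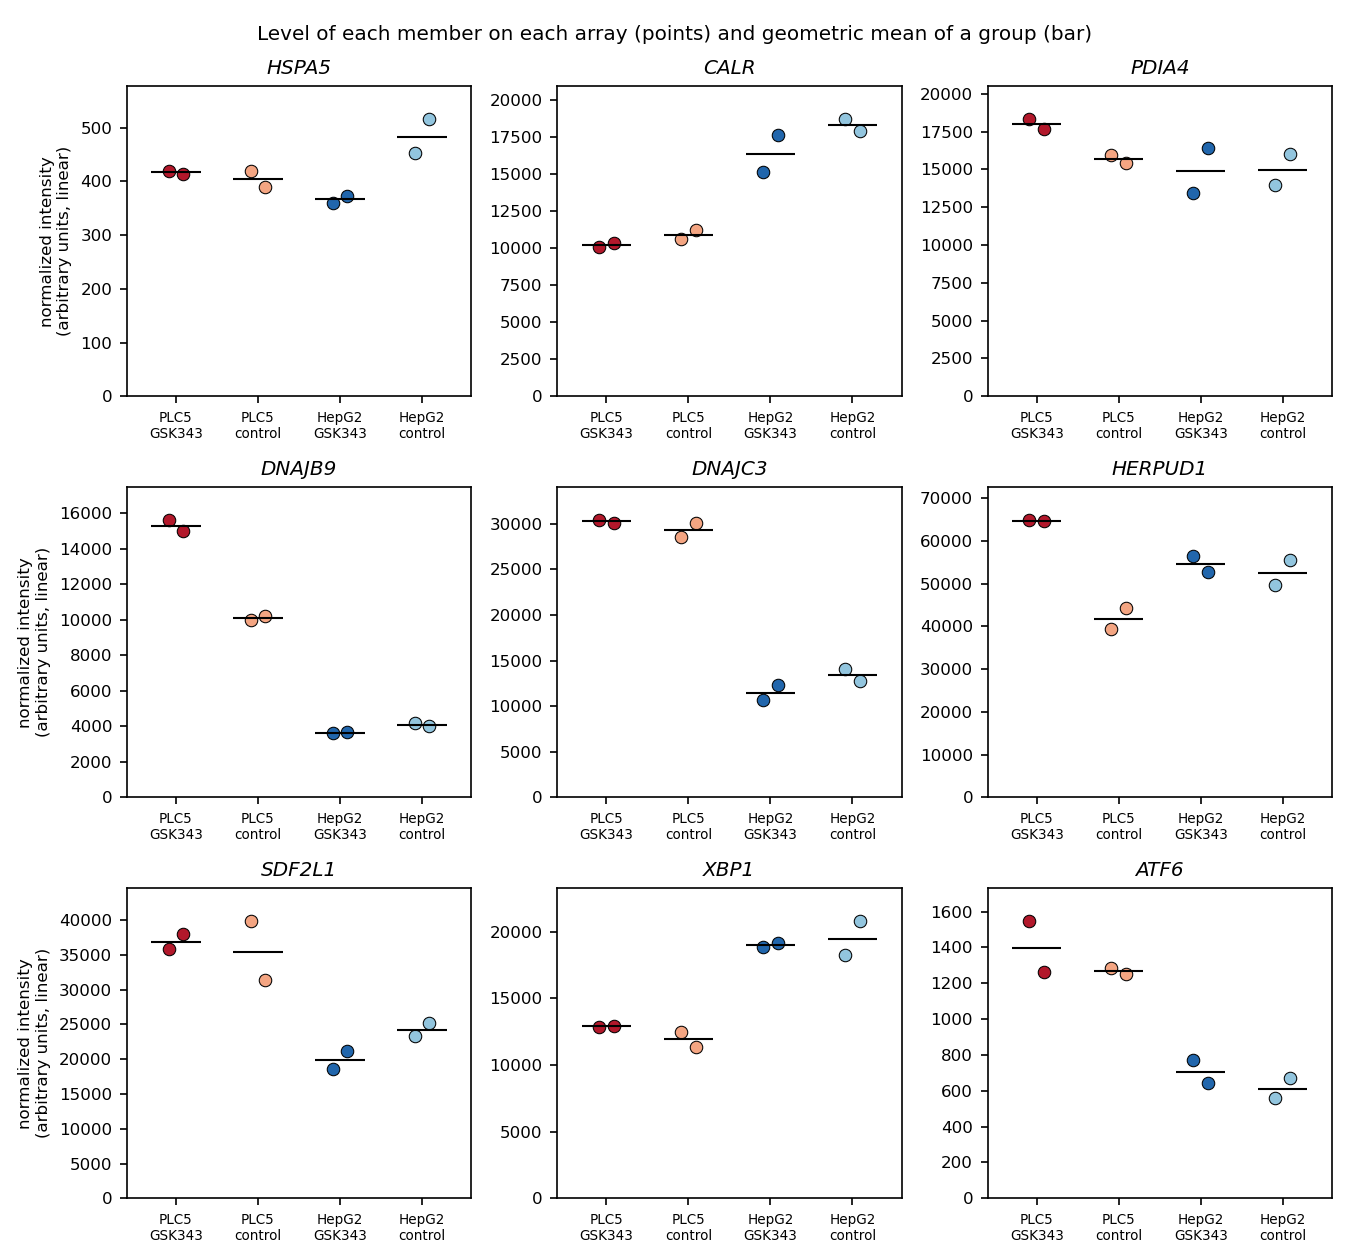
Normalized intensity (arbitrary units, linear axis from 0, a separate scale for each gene) of the 9 measured members in PLC5 with GSK343, PLC5 control, HepG2 with GSK343 and HepG2 control. Each point is an array (2 a group) and each bar the geometric mean of a group; the treated PLC5 points of DNAJB9 and HERPUD1 stand above their controls, while CALR and XBP1 are higher in HepG2.

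HSPA5, or BiP, is the main Hsp70 chaperone of the endoplasmic reticulum and the usual marker of its stress. Its probe read 419 and 414 in treated PLC5 and 419.6 and 389.6 in PLC5 controls, with overlap (log2 fold change 0.04, 95% interval -0.25 to 0.34). In HepG2 it read 359.9 and 373 under GSK343, against 453 and 516 in controls. The treated HepG2 arrays were the lower ones, with a log2 fold change of -0.40 ± 0.13 that did not pass the test (adjusted p = 0.0927). The 95% intervals of this 1 probe end at a log2 rise of 0.34 in PLC5, and lie below 0 in HepG2 (-0.70 to -0.10). They are not adjusted for the number of probes. That probe was the weakest of the members, and its intensities lay within the range of the endothelial marker PECAM1 (321.6 to 537.9). How well it reports the RNA of HSPA5 was not tested, so the intervals do not bound the response of the gene.

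CALR encodes calreticulin, a calcium-binding chaperone of glycoproteins. It had 10074 and 10366 in treated PLC5, against 10628 and 11244 in PLC5 controls. In HepG2 it had 15163 and 17627 under GSK343 and 18719 and 17929 in controls. In each line the treated arrays lay below the controls, by a log2 fold change of -0.10 (95% interval -0.34 to 0.15) in PLC5 and -0.16 (-0.41 to 0.08) in HepG2, and neither passed.

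PDIA4, a disulfide isomerase known as ERp72, had 18312 and 17651 in treated PLC5, against 15971 and 15431 in PLC5 controls. The groups did not overlap, but the log2 fold change of 0.20 ± 0.12 did not pass (adjusted p = 0.525). In HepG2 the values were 13466 and 16397 under GSK343 and 13994 and 16032 in controls, a log2 difference of -0.01 (95% interval -0.29 to 0.27).

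DNAJC3 encodes P58IPK, another J-domain partner of HSPA5, and its 2 probes disagreed in size in HepG2 and in sign in PLC5. The brighter one read 30388 and 30116 in treated PLC5 and 28602 and 30041 in PLC5 controls (log2 fold change 0.05). In HepG2 it read 10651 and 12340.5 under GSK343, against 14077 and 12706 in controls (-0.22, adjusted p = 0.226). The dimmer probe read 554 and 570.1 in treated HepG2, against 788 and 871 in controls, and fell there (-0.56 ± 0.12, adjusted p = 0.0272). In PLC5 the dimmer probe gave -0.15 and did not pass (adjusted p = 0.642). With the median of both probes, DNAJC3 was called lower in HepG2 (-0.39, adjusted p = 0.0379).

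SDF2L1 is a partner of chaperone complexes of the endoplasmic reticulum and a strong target of the response in many cell types. It had 35783 and 38081 in treated PLC5, inside the range of the PLC5 controls at 39844 and 31459. In HepG2 it had 18654 and 21238 under GSK343, against 23350.1 and 25191 in controls, with no overlap (log2 fold change -0.29 ± 0.13, adjusted p = 0.198).

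XBP1 and ATF6 encode the factors themselves, and XBP1 is also a target of ATF6. XBP1 had 12844 and 12948 in treated PLC5, against 12461 and 11380.2 in PLC5 controls (log2 fold change 0.11, 95% interval -0.12 to 0.35). In HepG2 it had 18848 and 19105 under GSK343, within the 18263 and 20771 of the controls (-0.04, 95% interval -0.28 to 0.20). ATF6 had 1546 and 1265 in treated PLC5 and 1286 and 1254 in PLC5 controls, and 773 and 641 in treated HepG2 and 560.0 and 669.6 in HepG2 controls. Both pairs overlapped, and its log2 fold changes of 0.14 in PLC5 and 0.20 in HepG2 did not pass (adjusted p = 0.758 and 0.447). The second ATF6 probe gave 0.02 and -0.07.

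Over the 7 members that did not pass in PLC5, the 95% intervals of the log2 fold change ran from -0.34 at the lowest to 0.50 at the highest. Over all 9 in HepG2 they ran from -0.70 to 0.56. The arrays of the groups did not overlap for 6 of 9 members in PLC5 (5 above and 1 below), against 45.6% of all genes (22.8% above and 22.8% below). DNAJC3 counts as above there by its brighter probe, while the treated PLC5 arrays of its dimmer probe lay below the controls. In HepG2 they did not overlap for 5 of 9 (all 5 below), against 60.1% of all genes (29.2% above and 30.9% below). With arrays centred on their median, 5 of 9 members lay below 0 in PLC5 (median -0.01, all genes -0.09) and 8 of 9 in HepG2 (median -0.23, all genes -0.01). No direction is therefore read for the members as a group in PLC5.

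**Figure D2:**
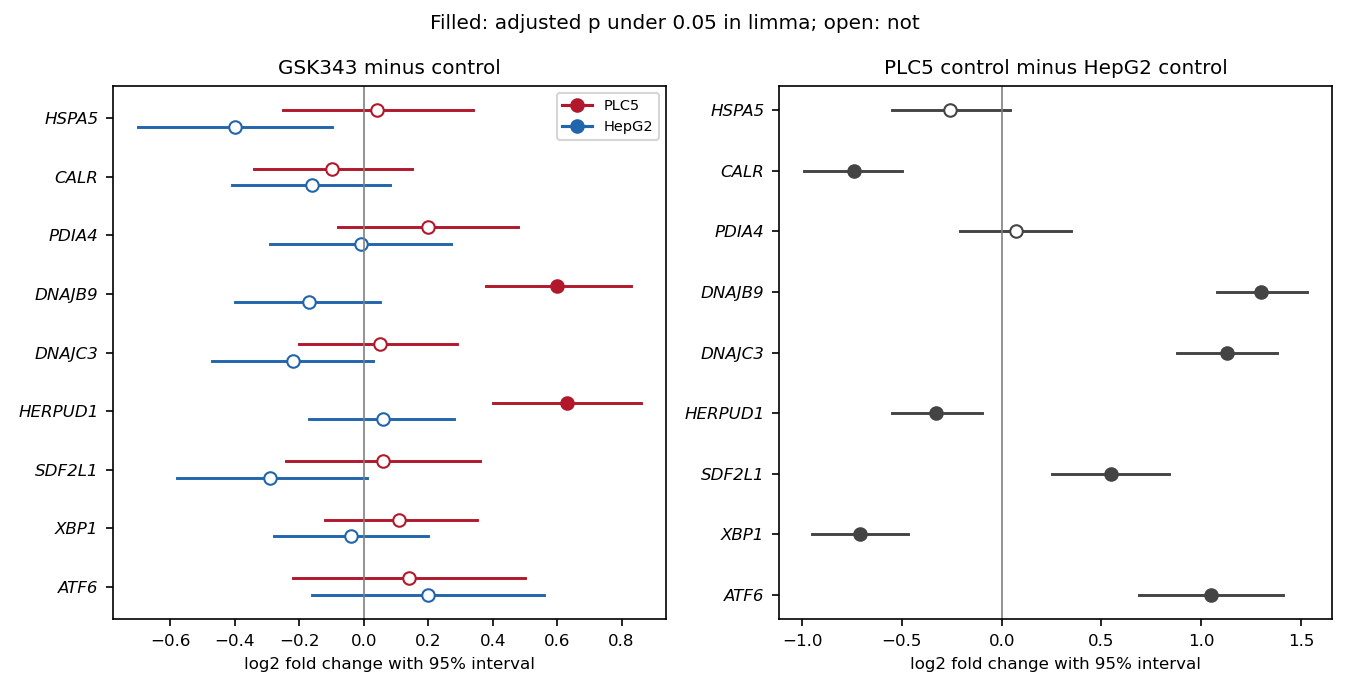
Log2 fold change of the 9 measured members with its 95% interval from limma, for GSK343 minus control in PLC5 and HepG2 (left) and for PLC5 control minus HepG2 control (right). Filled points passed at an adjusted p under 0.05: DNAJB9 and HERPUD1 on the left in PLC5, none in HepG2, and 7 of 9 on the right.

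The difference between the lines in the response to GSK343 was tested directly, as the PLC5 effect minus the HepG2 effect. It passed for 0 of 9 members in limma, where 0.84% of all genes were called, 0.436% with a higher and 0.404% with a lower effect in PLC5. Of the 9, 3 had an unadjusted p under 0.05, against 18.5% of all genes. DNAJB9 was closest, with a log2 difference of 0.77 ± 0.14 (adjusted p = 0.0537), followed by HERPUD1 with 0.57 ± 0.14 (adjusted p = 0.103) and HSPA5 with 0.44 ± 0.18 (adjusted p = 0.262). The call of DNAJB9 was gained under 5 of 10 other settings, with adjusted p from 0.00952 to 0.182 over all 10. The effects of GSK343 on DNAJB9 and HERPUD1 were therefore not shown to differ between the lines by the main test.

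Base levels differed between the lines for 7 of 9 members, with DNAJB9 and DNAJC3 higher in PLC5 and CALR and XBP1 lower. Between the controls, limma called 4 of 9 members higher in PLC5 and 3 lower, where 58.5% of all genes were called, 26.8% higher and 31.6% lower. The same 7 had an unadjusted p under 0.05, against 62.8% of all genes. The arrays did not overlap for 8 of 9 (4 above and 4 below), against 78.8% of all genes (35.9% above and 42.9% below). The split of calls depended on the scaling: 6 higher and 0 lower with quantile normalization within each line (median of the members 0.68, of all genes 0.68), and 3 higher and 3 lower under median centring. Within lines, 10180 of all 18336 genes were called higher and 1960 lower, and under median centring 4103 higher and 5039 lower. DNAJB9 (10085 in PLC5 and 4092 in HepG2, geometric means) was higher by 1.30 ± 0.10 on the log2 scale, and DNAJC3 (29312 and 13374) by 1.13 ± 0.11. The second probe of DNAJC3 gave a smaller difference of 0.38 (adjusted p = 0.0221), and the median of both probes 0.76. ATF6 (1269.9 and 612) was higher by 1.05 ± 0.16, but its second probe gave 0.16 and did not pass (adjusted p = 0.383). SDF2L1 (35404 and 24253) was higher by 0.55 ± 0.13 (adjusted p = 0.00638), but not once each array was centred on its median (0.32, adjusted p = 0.0647).

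CALR (10932 in PLC5 and 18319.7 in HepG2), XBP1 (11908 and 19477) and HERPUD1 (41801 and 52456) were lower in PLC5, by log2 differences of -0.74 ± 0.11, -0.71 ± 0.11 and -0.33 ± 0.10. HSPA5 (-0.26, adjusted p = 0.125) and PDIA4 (0.07, adjusted p = 0.669) did not pass. The call of HERPUD1 was lost without the second HepG2 control (-0.24, adjusted p = 0.157) or the first PLC5 control (-0.25, adjusted p = 0.105). With quantile normalization within each line, CALR gave -0.14 and XBP1 -0.11 and neither was called (adjusted p = 0.287 and 0.384), while HSPA5 (0.55, adjusted p = 0.00488) and PDIA4 (0.68, adjusted p = 0.00162) were called higher in PLC5. Before normalization the median probe was brighter in the PLC5 controls than in the HepG2 controls by 0.96 (log2). The differences of the main test are relative to that shift. Quantile normalization within each line leaves a shift between the lines in place, with a median of 0.68 over all genes. The values and calls under it include that shift, with HSPA5 (0.55) below that median.

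Other genes of the endoplasmic reticulum were counted in 7 lists by role, none of them holding a member. Of 99 measured genes, none was called in PLC5 (median 0.11), where 1.07% of all genes were called. In HepG2 there were 3 higher and 2 lower calls (median 0.01), where 8.8% of all genes were called. The same shares stand beside the counts of each list below. At the unadjusted p under 0.05 there were 13 of 99 in PLC5, all higher, against 16.1% of all genes, and in HepG2 17 higher and 10 lower, against 28.1% of all genes. Under median centring the list medians were -0.06 in PLC5 and -0.12 in HepG2, and 1 rose and 5 fell in HepG2, so no direction is given for these lists.

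Among 15 other chaperones and co-chaperones 0 passed in either line. HYOU1, a large chaperone that exchanges nucleotide on HSPA5, gave log2 fold changes of 0.05 in PLC5 and 0.37 in HepG2 (adjusted p = 0.905 and 0.102), and the secreted factor MANF gave -0.03 and 0.37 (adjusted p = 0.964 and 0.218). Among 13 disulfide isomerases and oxidases 0 passed, with medians of 0.14 in PLC5 and -0.06 in HepG2. Among 18 genes of degradation from the endoplasmic reticulum 0 passed, with medians of 0.17 and 0.10. The E3 ligase SYVN1 gave 0.28 in PLC5 and 0.36 in HepG2 (adjusted p = 0.316 and 0.0918), and its partner SEL1L 0.41 and 0.27 (adjusted p = 0.119 and 0.142). HYOU1, MANF, SYVN1 and SEL1L fall outside the naming rule and were picked with their values known. Among 23 genes of the translocon, signal peptidase and N-glycosylation 0 passed, with medians of 0.08 and -0.02.

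The 12 sensors and transcription factors had 0 called in PLC5 and 1 in HepG2, where CREB3, a membrane-bound factor of the ATF6 type, fell (9305 and 11569 under GSK343, against 13697 and 15830.0 in controls; log2 fold change -0.51 ± 0.13, adjusted p = 0.0449). That call was lost without any 1 of the 8 arrays (adjusted p up to 0.222). ERN1, which encodes IRE1, gave -0.11 in PLC5 and -0.14 in HepG2, and EIF2AK3, which encodes PERK, gave 0.45 and 0.01, none called (adjusted p = 0.833, 0.649, 0.0821 and 0.955). ERN1 and EIF2AK3 were likewise picked with their values known.

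Of 6 prolyl isomerases of the endoplasmic reticulum, FKBP14 rose in HepG2 (395 and 365, against 173 and 249; log2 fold change 0.87 ± 0.20, adjusted p = 0.0343) and FKBP2 fell (-0.34 ± 0.09, adjusted p = 0.0471). Of 12 genes of transport to the Golgi, SAR1B, a GTPase of vesicle budding, rose in HepG2 (1209.7 and 1249 under GSK343, against 606 and 618 in controls; 1.01 ± 0.15, adjusted p = 0.00924). LMAN1, a cargo receptor for glycoproteins, rose there by its brighter probe (0.86 ± 0.19, adjusted p = 0.0321), while its dimmer probe gave -0.38 and did not pass (adjusted p = 0.107). Each of these 4 calls was lost without 1 or more arrays, with adjusted p up to 0.138 for FKBP14, 0.211 for FKBP2, 0.0592 for SAR1B and 0.142 for LMAN1.

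In the PERK, ATF4 and CHOP arm most genes rose in both lines. Of its 12 genes, 10 rose and none fell in PLC5, and HepG2 had 7 higher and 1 lower, with median log2 fold changes of 1.32 and 0.82, against -0.01 over all genes in each line. Over all genes 1.07% were called in PLC5 and 8.8% in HepG2. Median centring gave 9 higher in PLC5, and 6 higher and 1 lower in HepG2. Like the members, this list was chosen with earlier results of these data known, so its direction is no independent evidence. TRIB3, a pseudokinase induced by ATF4 and CHOP, had 9666 and 10385 in treated PLC5, against 2516 and 2434 in PLC5 controls (log2 fold change 2.02 ± 0.14). In HepG2 it had 48046 and 46048 under GSK343, against 17454 and 23295 in controls (1.22 ± 0.14). NUPR1, a stress-induced nuclear protein, rose by 1.64 in PLC5 and 1.79 in HepG2, and CHAC1, which degrades glutathione, by 1.59 and 1.04, the HepG2 controls of CHAC1 being dim at 61.6 and 49.3. The HepG2 call of CHAC1 was lost without the first treated or the second control array there (adjusted p up to 0.0682) and with only the 4 HepG2 arrays fitted (0.0619), and its PLC5 call without the first PLC5 control (0.0625).

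DDIT3, which encodes CHOP, had 15318 and 18244 in treated PLC5, against 7411 and 9953 in PLC5 controls, and rose (0.96 ± 0.15, adjusted p = 0.0291), a call lost without any 1 of 7 of the 8 arrays (adjusted p up to 0.141). In HepG2 it overlapped between groups, with 7925 and 7573 under GSK343 and 8175 and 7867 in controls (-0.05). The brighter probe of ATF4 gave 0.73 in PLC5 and 0.39 in HepG2, and its dimmer probe -0.20 and -0.42, none of them called (adjusted p from 0.0796 to 0.578). PPP1R15A, which encodes the subunit that ends the translation block, gave 0.10 in PLC5 and fell in HepG2 (907 and 831, against 1601 and 1456; -0.82 ± 0.15, adjusted p = 0.0164), a call lost without any 1 of the 4 HepG2 arrays (adjusted p up to 0.0924). The largest rise among the members, 0.63 for HERPUD1 in PLC5, was below the median of this arm in both lines.

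Chaperones of other compartments were counted in the same way. Of 15 cytosolic chaperones and heat shock genes, 0 passed in PLC5 and 1 fell in HepG2, with medians of 0.00 and -0.08. The one that fell was HSPA4, a nucleotide exchange factor for Hsp70 (61474 and 61729, against 85494 and 82186; -0.44 ± 0.09, adjusted p = 0.0253), and its call was lost without any 1 of the 4 HepG2 arrays (adjusted p up to 0.108) and without a trend in eBayes (0.0917). Of 7 mitochondrial chaperones 0 passed in either line, with medians of -0.02 and -0.11.

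**Figure D3:**
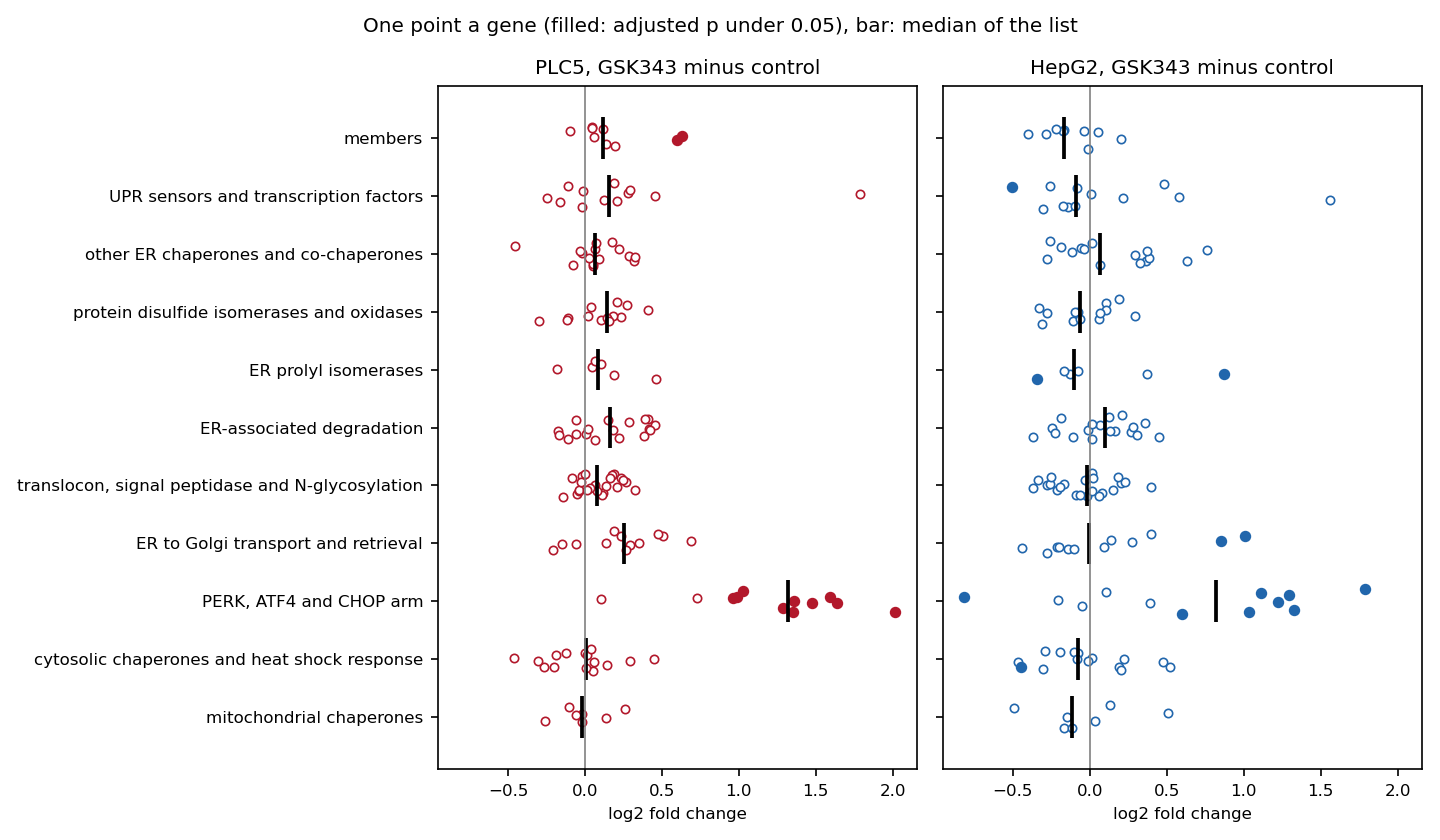
Log2 fold change for GSK343 minus control, 1 point a gene, in PLC5 (left) and HepG2 (right), for the 9 measured members and 10 lists of related genes; bars are list medians and filled points passed at an adjusted p under 0.05. The PERK, ATF4 and CHOP arm has its medians at 1.32 and 0.82, while the members have theirs at 0.11 and -0.16. The unfilled point above 1.5 among the sensors in both panels is ATF6B, which did not pass (adjusted p = 0.676 in PLC5 and 0.567 in HepG2).

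The genes with a stress element, as printed above for the members, were also counted. ERSE or ERSE-II was present in 44 genes, 33 of them measured. In PLC5 1 of the 33 was called, HERPUD1, and 0 in HepG2, with medians of 0.05 and -0.10, where 1.08% and 8.78% of all genes with a window were called. Without the members, 28 were measured and 0 were called in either line. Of 525 measured genes with the CARE core, 8 rose and 2 fell in PLC5 (1.9% called) and 28 rose and 13 fell in HepG2 (7.81% called), against the 1.08% and 8.78% of all genes with a window, and the difference between these shares was not tested.

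Over the 8 arrays, the genes most like XBP1 in pattern were SMIM26, TSPAN10 and FER (Pearson r = 0.993, 0.993 and 0.992 among 9167 genes above the median intensity). The pattern they shared was a higher level on the 4 HepG2 arrays, and with quantile normalization within each line, also added with the data seen, r was 0.609, 0.773 and 0.709. The genes most like HSPA5 were NOL7, UTP23 and NDUFV1 (r = 0.936, 0.927 and 0.927), which like HSPA5 had their highest 2 arrays in the HepG2 controls. Under median centring, an alternative added with the data seen, r was 0.65 for NOL7, 0.955 for UTP23 and 0.665 for NDUFV1. The dimmer probe of UTP23 went the other way in HepG2, with a log2 fold change of 0.41 against -0.57 for the brighter one, and neither passed (adjusted p = 0.0888 and 0.0634). Among the members, DNAJB9 and HERPUD1 had r = 0.142 over the 8 arrays and 0.887 once each line's mean was taken out. They are the 2 members called in PLC5, and their shared rise there enters the 0.887, so it is no separate evidence. Other pairs were also far from 0 on that scale, such as HSPA5 with SDF2L1 (0.837) and CALR with ATF6 (-0.857). These correlations describe 8 arrays of 4 groups and carry no test.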

How the data were processed

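Per the labels' protocols, RNA was amplified as amino-allyl antisense RNA and labelled with Cy5. Each deposited intensity is linear, with 1 value for a probe on an array. No source used here states the scanner, background correction or flags. Array medians ran from 226 to 552, so no normalization between arrays was visible, and up to 6.99% of an array's probes lay at or below 1. Before normalization the treated median was higher by 0.19 (log2) in PLC5 and 0.49 in HepG2, and changes are relative to that.

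Intensities were quantile normalized over 8 arrays, floored at 1 and taken to log2. Probes were named from the platform annotation, 24740 with 1 symbol, 977 with several and 6024 with none, and 1948 symbols were updated through RefSeq (GRCh38.p14). The probe with the highest mean stood for a gene. With limma 3.58.1 under R 4.3.3, lmFit estimated the 4 group means with a shared spread, followed by eBayes with a trend. Two-sided p-values received the Benjamini-Hochberg adjustment across 31741 probes, and a call is an adjusted p under 0.05. Errors after ± are standard errors with 2 arrays a group, whose small number limits precision. The fit was tested on simulated data, with log2 changes set in treated HepG2 for probes brighter than the median. It called 3 of 50 changes of 0.5, 45 of 50 of 1, 48 of 50 of 1.5 and 50 of 50 of 2. Of its 157 calls, 11 were false. In that simulation changes of 0.5 were thus mostly missed. It called 157 probes, against 2572 in the HepG2 data, so its cutoff on the unadjusted p was stricter. The shares recovered therefore do not carry over to the data, and no change was simulated in PLC5. A member that did not pass is not shown to be unchanged. Alternatives were other scalings, floors, filters and probe summaries, other eBayes settings, a replicate block and leaving out each array.

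The members, the 14 gene lists and the motifs were chosen with earlier results of these data known. The naming rule took all members, up to 4 called genes a list and line with the largest change and no overlap of arrays, ATF4, DDIT3, TRIB3 and PPP1R15A, and the 3 genes most like HSPA5 or XBP1; not each is printed, and genes outside it are marked. Marker lists were for hepatocytes, fibroblasts, endothelium and leukocytes. Protein sequences were not used here. Replicate numbers were not taken as pairs, since the labels do not give them that meaning.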

Additional observations from a re-analysis of the deposited data

Results flagged for a closer look

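SLC7A11, the cystine carrier of the ATF4 arm, differed between the lines in its response to GSK343 by the test of the difference itself: log2 fold changes of 1.47 in PLC5 and 0.60 in HepG2 gave a difference of 0.87 ± 0.15 (limma adjusted p = 0.0487), with both treated arrays above both controls in each line. The call was lost without any 1 of the 8 arrays (adjusted p up to 0.16) and in 5 of 10 other settings (adjusted p up to 0.178, difference down to 0.61), and its dimmer probe gave 0.35 (adjusted p = 0.649). The ATF4 arm as listed had 3 of 12 differences called, where 0.84% of all genes were called (80 higher and 74 lower). It had 0 under median centring or quantile normalization within each line. Calls over all genes were also fewer there, with 34 higher and 37 lower under median centring, and 62 and 47 within each line. No member of the chaperone set passed that test.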

How the results depend on the processing

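The count of members called in HepG2 was 0 in all but 1 alternative: with the probes of each gene summarised by their median it was 1 (DNAJC3, lower), and it was 0 without each array in turn. The count in PLC5, 2 in the main test, was 0 with arrays centred on their median, without a trend, with only the 4 arrays compared and with the replicate block, and 1 with a floor of 64; without each array in turn it ran from 0 to 1. The count for the difference between lines was 1 with the dimmest 25% or 50% of probes left out, with robust eBayes, with a floor of 64 and with the median of all probes, and 0 without each array in turn. Between the controls it ran from 6 to 7 without each array in turn, and the 6 called with quantile normalization within each line were all higher in PLC5. Under that setting 10180 of all 18336 genes were called higher in PLC5 and 1960 lower. Deviations of same-numbered arrays correlated with r = -0.0205 in PLC5 and -0.104 in HepG2, and the replicate block brought the probes called from 276 to 143 in PLC5 and from 2572 to 1574 in HepG2. With arrays centred on their median the probes called were 135 higher and 279 lower in PLC5, against 208 and 68, and 833 and 919 in HepG2, against 1540 and 1032.

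Small values changed sign. With arrays centred on their median, PLC5 gave -0.01 for PDIA4, -0.16 for DNAJC3, -0.12 for SDF2L1 and -0.08 for XBP1, HepG2 gave -0.16 for HERPUD1, and the controls gave -0.10 for PDIA4. With the median of all probes, DNAJC3 gave -0.05 in PLC5, ATF4 -0.01 in HepG2 and ATF6 0.01 for the difference. Quantile normalization within each line moved the median of all genes between the controls from -0.09 to 0.68, and HSPA5 to 0.55 (called) and HERPUD1 to 0.20 (not called). Without each array in turn, PLC5 ran from -0.01 to 0.10 for HSPA5, -0.11 to 0.23 for SDF2L1, -0.0047 to 0.29 for ATF6, -0.06 to 0.02 for CREB3 and -0.08 to 0.29 for PPP1R15A. HepG2 ran from -0.15 to 0.13 for PDIA4, -0.03 to 0.13 for HERPUD1 and -0.13 to 0.05 for XBP1, the difference from -0.04 to 0.18 for CALR and -0.21 to 0.08 for ATF6, and the controls from -0.03 to 0.16 for PDIA4. The causes were not tested.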
